A study of Mus musculus with 5 samples.

Results

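The 36 genes described here encode the machinery that takes a cell through G2 and mitosis, from the transcription regulator FOXM1 and the mitotic cyclins to kinetochore proteins, spindle motors and cytokinesis proteins. They were taken by symbol from a given list of G2 and mitosis genes. All 36 were present among the 13004 genes of the deposited table, and all 36 passed the filter on low values, with 11190 genes tested. RNA had been sequenced from natural killer (NK) cells, lymphocytes of the innate immune system, sorted from the spleen of 8-week-old C57BL/6 mice as live CD3-, NK1.1+, DX5+ cells. The control group had 3 libraries (controls 1, 2 and 3) of genotype Mycf/f, in which loxP sites flank Myc. The MycKO group had 2 libraries (MycKO 5 and 6) of genotype MycΔ/Δ/Ncr1Cre, in which Cre driven by Ncr1, a receptor gene of NK cells and some other innate lymphocytes, deletes Myc. No Cre is named for the controls, so presence of Cre and loss of Myc cannot be told apart. The labels name no separate mouse for each library, and the p-values therefore measure only how these libraries spread, which may be technical.

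G2 is the interval between DNA replication and cell division, and mitosis is the division of the copied chromosomes. Cyclin A and B with CDK1 start it, Aurora and Polo kinases build the spindle, and the spindle checkpoint holds the anaphase-promoting complex in check until every kinetochore is attached. The genes are switched on together in G2: in resting cells the DREAM complex represses many of them through a promoter element called CHR, and in dividing cells MuvB with B-MYB and FOXM1 activates them there, often beside CCAAT boxes bound by NF-Y. Most splenic NK cells of an adult mouse at rest are not dividing, so a small cycling fraction can set the level of these transcripts in bulk RNA.

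Promoters were read because MuvB complexes are known to bind the CHR, and NF-Y the CCAAT box, of G2 and mitosis genes. Of the 36 members, 31 had an entry in the RefSeq promoter table (GRCm38.p6), which gives 250 bases before and 50 after the transcript start; Aurkb, Kif20a, Foxm1, Ccna2 and Tpx2 had none. The CHR was searched as TTTGAA or TTCGAA, the CCAAT box as CCAAT and the E-box, a motif that MYC with MAX binds, as CACGTG, on both strands and with overlaps allowed. A CHR match was found in 26 of 31 members (83.9%), against 21.7% of the 27025 genes with a promoter in the table and 16.7% of the 10050 of them that were in the deposited data. A CCAAT match was found in 25 members (80.6%), against 41.1% of all genes and 43.0% of deposited ones. Both stood in the promoters of 23 members (74.2%), against 8.61% and 7.0%. Only Ttk, 1 of 31 (3.23%), held CACGTG, against 8.09% of all genes and 11.5% of deposited ones. No test was run on these shares, and a match is a description of letters and not of binding.

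The stretches of 200 bases below show the promoters of 6 members that carry both motifs and, last, that of Birc5, which carried neither and stood furthest above the other controls in control 2. They end at or before the transcript start, and capitals mark the CHR (TTTGAA or TTCGAA, or TTCAAA when the match is on the other strand) and the CCAAT box (CCAAT, or ATTGG on the other strand). All are written 5′ to 3′ on the gene's strand.
Ccnb2 promoter, chr9:70421555-70421754, minus strand: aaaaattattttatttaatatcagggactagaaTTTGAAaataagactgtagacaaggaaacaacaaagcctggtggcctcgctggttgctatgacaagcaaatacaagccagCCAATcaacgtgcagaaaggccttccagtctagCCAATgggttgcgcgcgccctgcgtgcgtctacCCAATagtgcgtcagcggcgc
Cdc20 promoter, chr4:118437353-118437552, minus strand: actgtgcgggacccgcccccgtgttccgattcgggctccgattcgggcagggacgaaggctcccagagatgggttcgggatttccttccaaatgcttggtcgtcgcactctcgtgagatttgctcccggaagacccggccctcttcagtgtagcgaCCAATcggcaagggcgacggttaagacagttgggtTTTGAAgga
Kif11 promoter, chr19:37376182-37376381, plus strand: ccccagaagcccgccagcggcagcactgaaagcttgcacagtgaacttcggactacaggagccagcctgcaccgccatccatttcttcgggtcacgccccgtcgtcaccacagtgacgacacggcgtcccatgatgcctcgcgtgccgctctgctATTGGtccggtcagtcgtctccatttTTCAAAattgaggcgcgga
Ckap2l promoter, chr2:129297213-129297412, minus strand: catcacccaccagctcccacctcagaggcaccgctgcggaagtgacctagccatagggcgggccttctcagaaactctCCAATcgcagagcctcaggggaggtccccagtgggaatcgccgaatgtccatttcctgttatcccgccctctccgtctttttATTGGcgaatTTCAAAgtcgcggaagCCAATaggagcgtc
Top2a promoter, chr11:99024190-99024389, minus strand: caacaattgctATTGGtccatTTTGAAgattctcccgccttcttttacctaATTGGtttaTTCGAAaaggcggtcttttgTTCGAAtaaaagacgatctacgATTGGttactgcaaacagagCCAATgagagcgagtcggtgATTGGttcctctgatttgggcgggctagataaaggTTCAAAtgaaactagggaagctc
Mki67 promoter, chr7:135716380-135716579, minus strand: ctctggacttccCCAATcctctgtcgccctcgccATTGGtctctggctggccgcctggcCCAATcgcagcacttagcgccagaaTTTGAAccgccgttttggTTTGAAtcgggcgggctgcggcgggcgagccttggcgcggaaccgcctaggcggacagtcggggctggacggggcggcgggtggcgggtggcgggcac
Birc5 promoter, chr11:117849037-117849236, plus strand: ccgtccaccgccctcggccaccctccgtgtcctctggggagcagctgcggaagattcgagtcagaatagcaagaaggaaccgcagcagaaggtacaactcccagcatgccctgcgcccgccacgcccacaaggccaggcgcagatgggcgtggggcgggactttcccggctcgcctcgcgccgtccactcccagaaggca

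Within these stretches Top2a carried 4 CHR and 5 CCAAT matches, Mki67 carried 2 and 3, and Ccnb2 and Ckap2l carried 1 and 3 each. Cdc20 and Kif11 carried 1 of each. Ccnb1, Birc5, Cenpe, Nuf2 and Nusap1 had no CHR match in their whole promoter window, which says only that these letters are absent there. Control 2 and MycKO 5 were the highest libraries for these 5 genes as for the others, as described below. How far control 2 stood above the mean of controls 1 and 3 ran from 1.45-fold in Ccnb1 to 17.5-fold in Birc5. Whether the motifs bear on the levels was not tested.

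**Figure D1:**
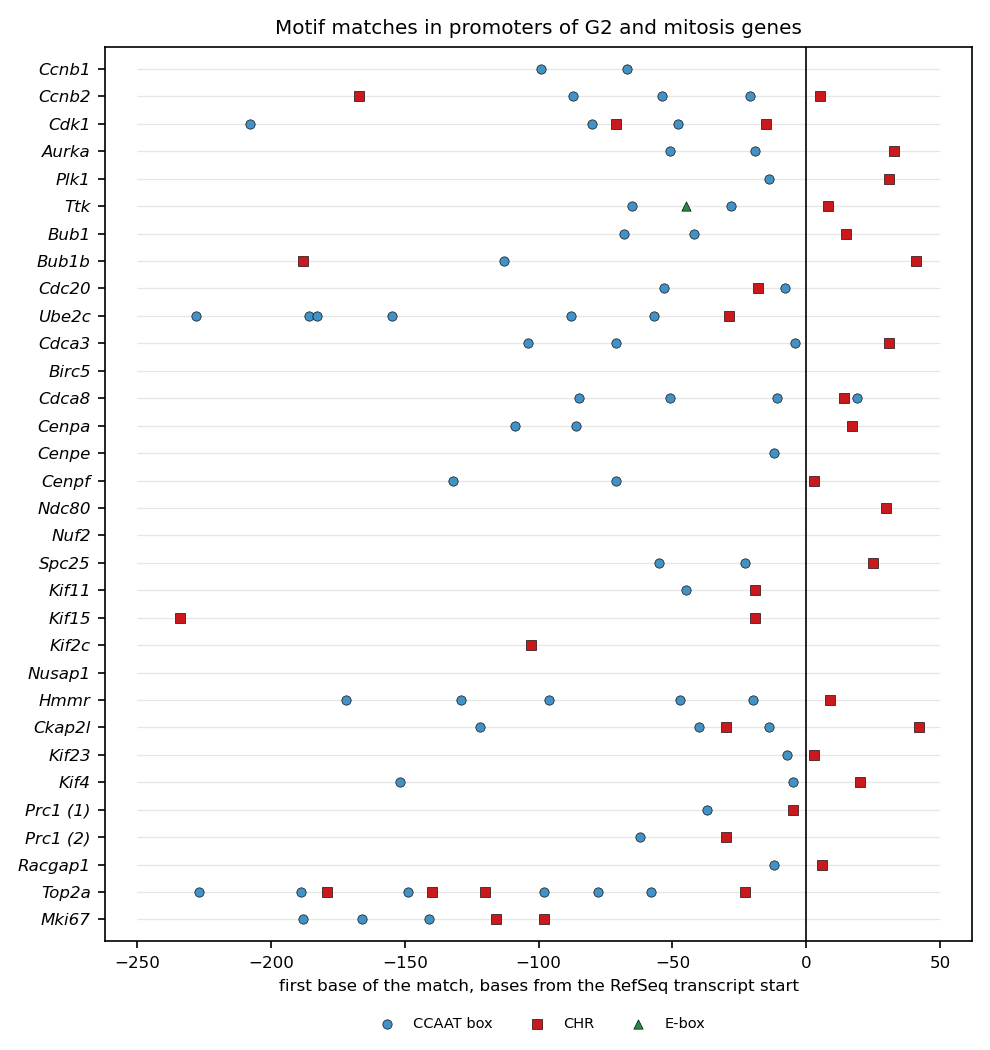
Motif matches in the promoters of the 31 members in the RefSeq table; the horizontal axis is the first base of a match in bases from the transcript start, and points mark CCAAT boxes, CHR and E-boxes (Prc1 has 2 entries). CCAAT boxes lie mostly before the start and CHR matches mostly near it, and Birc5, Nuf2 and Nusap1 hold none.

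The libraries held 15050801, 17610826 and 14290690 reads in listed genes for controls 1, 2 and 3, and MycKO 5 and 6 held 5451728 and 13337084. Levels are RPKM (reads scaled for the length of the transcript and for the depth of the library). Myc, the targeted gene, measured 13.0, 23.0 and 21.2 RPKM in controls 1 to 3. In MycKO 5 it measured 12.5 RPKM, and in MycKO 6 8.70 RPKM. The log2 difference of Myc was -0.77 (limma adjusted p = 0.297). Levels were given per gene only, so whether the Myc reads in MycKO came from outside the deleted part was not tested. All 12 NK cell markers were detected in each library, with Gzma at 7251, 6894 and 6584 RPKM in controls 1 to 3 and 4699 and 5620 RPKM in MycKO 5 and 6. Their sum was 13902 to 16179 RPKM in the controls and 11171 and 13138 RPKM in MycKO 5 and 6. By limma 0 of 12 passed and 9 were lower in MycKO, with a median log2 difference of -0.31. An unadjusted p under 0.05 was reached by 6 of them (13.2% of all genes). Markers of other cells were higher in both MycKO libraries: 9 of 12 tested macrophage and myeloid markers, 4 of 13 red cell precursor and platelet markers and 3 of 8 T cell markers passed the limma test upward. So did 1 of 10 B and plasma cell markers, Jchain (80.2, 44.99 and 34.8 RPKM in controls 1 to 3, 232 and 580 RPKM in MycKO 5 and 6), and 2 of 12 immature NK cell markers, Kit and Cd24a. By limma, 0 of 5 tested basophil and mast cell markers passed, with 2 at an unadjusted p under 0.05.

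No member passed the test between MycKO and control, and the largest differences lay within the groups. Control 2 and MycKO 5 were the 2 highest libraries in all 36 members, and MycKO 6 lay next in most of them. The summed RPKM of the 36 members was 139.7, 555.8 and 121.9 in controls 1 to 3 and 429.9 and 206.9 in MycKO 5 and 6. Control 2 was thus 4.25 times the mean of controls 1 and 3, and MycKO 5 was 2.08 times MycKO 6. The members took 0.0466%, 0.201% and 0.0438% of reads in controls 1 to 3 and 0.147% and 0.0717% in MycKO 5 and 6 (95% Wilson intervals 0.0455 to 0.0477%, 0.199 to 0.203%, 0.0427 to 0.0449%, 0.144 to 0.150% and 0.0703 to 0.0731%, counting error only). No 2 of these intervals overlap, and controls 1 and 3 were the closest pair. In bulk RNA, fewer dividing cells and less of these transcripts per dividing cell cannot be told apart.

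In limma on log2(RPKM + 1), 0 of 36 members were called at an adjusted p under 0.05, where 1.34% of all genes were, and 0 of 36 had an unadjusted p under 0.05, where 13.2% of all genes did. In limma-voom on the reads, 0 of 36 were called (2.07% of genes) and 2 had an unadjusted p under 0.05 (12.5% of genes). In the authors' deposited table, 0 of 36 were called (3.40% of genes) and 0 had an unadjusted p under 0.05 (11.1% of genes). Members were higher in MycKO in 32 of 36 cases in limma (57.1% of all genes), in 25 in limma-voom (57.9%) and in 24 in the authors' deposited table (50.6%). Foxm1, Plk1, Kif15 and Racgap1 were the 4 that were lower in limma. The median log2 difference of the members was 0.46, beside 0.05 over all genes tested. The MycKO and control ranges overlapped in all 36 members, while they did not overlap for 29.1% of genes.

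These genes varied more within the groups than most. The median SD of a member around its group means was 1.08 on the log2 scale, beside 0.24 over all genes, and the median 95% interval of a member's difference reached 1.57 to either side, beside 0.55 over all genes. Without control 2 the members' median SD was 0.51. Control 2 lay above both other controls in 36 of 36 members (37.0% of genes) and at least 2-fold above both in 32 (4.41% of genes). The exceptions to the 2-fold rule were Foxm1, Ccnb1, Cenpa and Racgap1. Control 2 was the highest of the 5 libraries in 27 members (21.0% of genes), and MycKO 5 in the other 9, which were Ccna2, Ccnb1, Cdk1, Ttk, Ube2c, Birc5, Cenpa, Cenpf and Ckap2l. MycKO 5 exceeded MycKO 6 in 36 of 36 members (49.9% of genes). Both MycKO libraries exceeded controls 1 and 3 in 26 members (26.9% of genes).

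**Figure D2:**
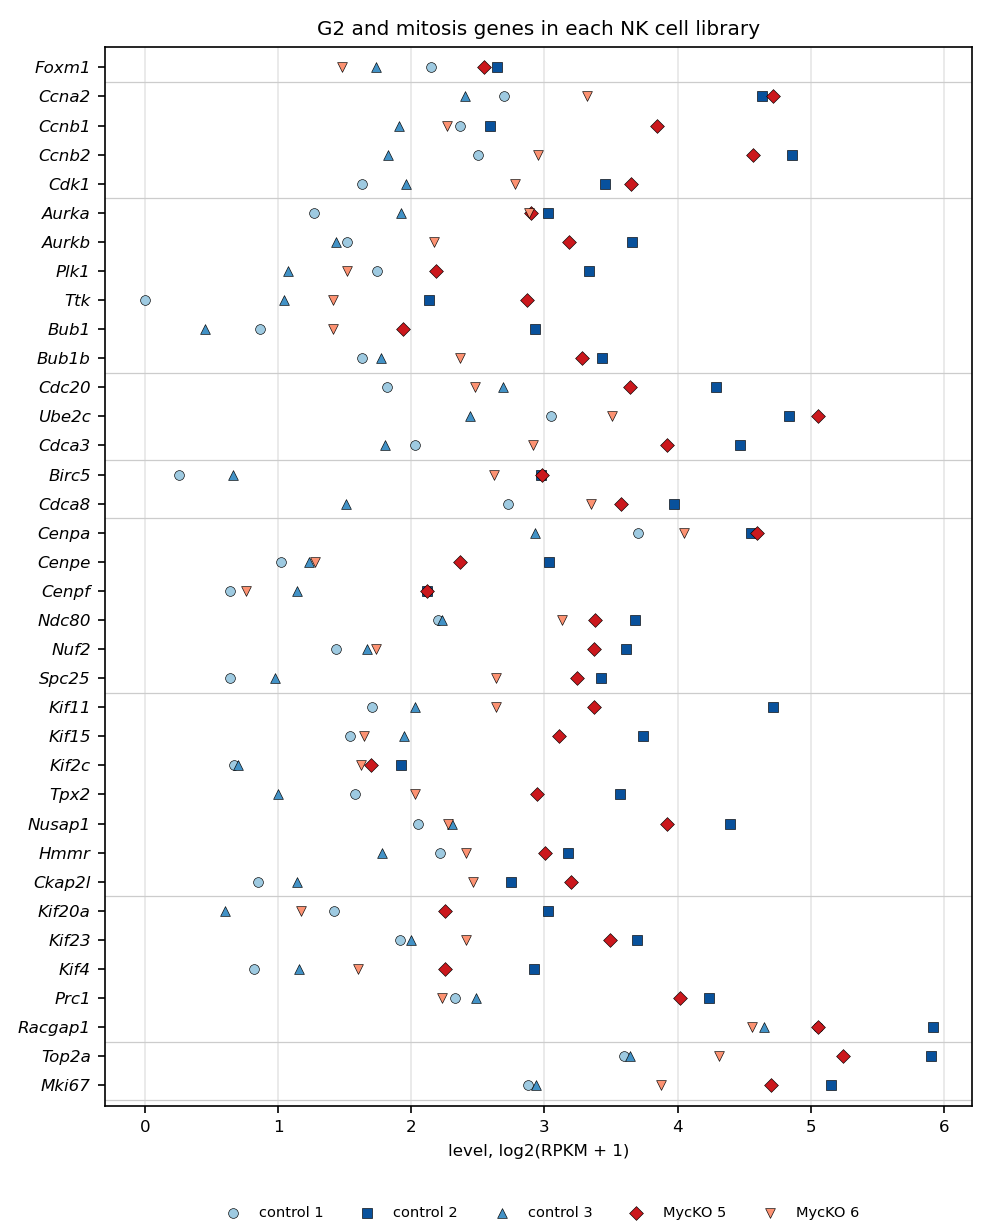
Level of each of the 36 members in each library, as log2(RPKM + 1) on the horizontal axis, with 1 symbol per library and lines between role groups. Control 2 (dark squares) lies right of controls 1 and 3 in 36 of 36 rows, and MycKO 5 (diamonds) right of MycKO 6 in 36 of 36.

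Foxm1 (chromosome 6, 128362967 to 128376146, plus strand, GENCODE vM21 on mm10) encodes the forkhead factor that activates G2 and mitosis genes. It measured 3.44, 5.25 and 2.34 RPKM in controls 1 to 3 and 4.83 and 1.79 RPKM in MycKO 5 and 6. MycKO 6 was the lowest of the 5 libraries and control 2 the highest, and the groups overlapped. The difference was -0.17 (SE 0.43, limma adjusted p = 0.937). Control 2 stood only 1.82-fold above the mean of controls 1 and 3, less than the median of 5.20-fold over the members.

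The 4 cyclin and CDK1 genes gave the highest levels in MycKO 5 or control 2. Ccna2, cyclin A2 (chromosome 3, 36564865 to 36572150, minus strand), measured 5.48, 23.8 and 4.28 RPKM in controls 1 to 3 and 25.2 and 8.98 RPKM in MycKO 5 and 6. MycKO 6 lay above controls 1 and 3 and far below the other pair, and the difference was 0.77 (SE 0.69, limma adjusted p = 0.744). Ccnb1, cyclin B1 (chromosome 13, 100778650 to 100786570, minus strand), measured 4.16, 5.03 and 2.75 RPKM in the controls and 13.4 and 3.82 RPKM in MycKO 5 and 6. Here MycKO 5 stood alone, at 2.66 times control 2 (95% exact interval 2.16 to 3.28 from the reads, counting error only), and control 2 was only 1.45-fold above the mean of controls 1 and 3. The Ccnb1 difference was 0.77 (SE 0.47, limma adjusted p = 0.593). Ccnb2, cyclin B2, ranged from 2.54 RPKM in control 3 to 28.0 RPKM in control 2, a larger range than that of its paralogue. Cdk1, the kinase that the mitotic cyclins activate, ranged from 2.09 RPKM in control 1 to 11.5 RPKM in MycKO 5. Pseudogenes named after Ccnb1 and Ccnb2 exist in the annotation, and reads shared with them could not be separated.

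Among the mitotic kinases and checkpoint genes, Bub1b had the highest mean level and Aurka the smallest p. Bub1b, which encodes the checkpoint protein BUBR1 (chromosome 2, 118598211 to 118641591, plus strand), measured 2.10, 9.82 and 2.42 RPKM in controls 1 to 3 and 8.74 and 4.15 RPKM in MycKO 5 and 6. Both MycKO libraries lay between control 2 and the other controls, and the difference was 0.54 (SE 0.58, limma adjusted p = 0.808). Aurka, the Aurora kinase of the spindle poles (chromosome 2, 172356190 to 172370535, minus strand), measured 1.41, 7.15 and 2.80 RPKM in the controls and 6.45 and 6.4 RPKM in MycKO 5 and 6. It was the member in which the MycKO libraries were closest, at a ratio of 1.01, and both were above controls 1 and 3 and below control 2. The Aurka difference was 0.82 (SE 0.49, limma adjusted p = 0.578). Aurkb, the Aurora kinase of the chromosomal passenger complex, reached 11.6 RPKM in control 2 and 8.11 RPKM in MycKO 5, and was at most 3.51 RPKM elsewhere. Plk1, the Polo kinase of mitotic entry, reached 9.10 RPKM in control 2 and 3.56 RPKM in MycKO 5. Its MycKO 5 to control 2 ratio of 0.391 was among the lowest, next to Kif11 at 0.370.

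Bub1, a kinase of the spindle checkpoint, measured 6.63 RPKM in control 2, 2.84 RPKM in MycKO 5 and 0.372 RPKM in control 3. Ttk, the checkpoint kinase MPS1, had 0 reads in control 1, where 3 reads would have been 0.0603 RPKM. It measured 3.39 RPKM in control 2 (197 reads), 56.1 times that floor, and 6.33 RPKM in MycKO 5. The lower 95% exact limit of control 2 over control 1, from the reads of both, was 45.2-fold (counting error only). Ttk was the single member listed at 0 in any library.

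In the 3 ubiquitination genes MycKO 6 was well below MycKO 5. Ube2c, the ubiquitin-conjugating enzyme that works with the anaphase-promoting complex (chromosome 2, 164769898 to 164778822, plus strand), measured 7.28, 27.6 and 4.43 RPKM in controls 1 to 3 and 32.3 and 10.4 RPKM in MycKO 5 and 6. MycKO 5 and control 2 were both far above the rest, and the difference was 0.84 (SE 0.72, limma adjusted p = 0.724). Cdc20, the activator of that complex, reached 18.6 RPKM in control 2 and 11.5 RPKM in MycKO 5, and MycKO 6 (4.58 RPKM) lay below control 3 (5.45 RPKM). Cdca3, which triggers entry into mitosis through degradation of a CDK1 inhibitor, reached 21.2 RPKM in control 2 and 14.2 RPKM in MycKO 5, against 6.55 RPKM in MycKO 6.

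Birc5 and Cdca8, partners of Aurora B in the chromosomal passenger complex, differed from most members in that MycKO 6 was nearly as high as MycKO 5. Birc5, survivin (chromosome 11, 117849251 to 117855743, plus strand), measured 0.197, 6.86 and 0.587 RPKM in controls 1 to 3 and 6.92 and 5.16 RPKM in MycKO 5 and 6. These values rest on 12, 490 and 34 reads in the controls and on 153 and 279 reads in MycKO. Control 2 was 17.5-fold above the mean of controls 1 and 3, the highest ratio of any member, and matched MycKO 5 within counting error (ratio 1.01). With all libraries the Birc5 difference was 1.5 (SE 0.76, limma adjusted p = 0.475). Cdca8, borealin (chromosome 4, 124918465 to 124939311, minus strand), measured 5.64, 14.7 and 1.85 RPKM in the controls and 10.9 and 9.17 RPKM in MycKO 5 and 6. Its difference was 0.72 (SE 0.62, limma adjusted p = 0.727), with controls 1 and 3 themselves well apart.

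The 6 centromere and kinetochore genes varied widely in how far control 2 stood out, from 2.41-fold in Cenpa to 12.7-fold in Spc25. Cenpa, the histone H3 variant that marks centromeres (chromosome 5, 30666777 to 30674830, plus strand), measured 12.0, 22.5 and 6.64 RPKM in controls 1 to 3 and 23.2 and 15.6 RPKM in MycKO 5 and 6. Control 2 was level with MycKO 5, controls 1 and 3 were lowest, and the difference was 0.60 (SE 0.44, limma adjusted p = 0.678). Spc25, a subunit of the NDC80 complex that holds microtubules (chromosome 2, 69193895 to 69206194, minus strand), measured 0.558, 9.73 and 0.970 RPKM in the controls and 8.47 and 5.23 RPKM in MycKO 5 and 6. Its pattern was that of Birc5, low only in controls 1 and 3, and the difference was 1.26 (SE 0.78, limma adjusted p = 0.596). The other 2 subunits of that complex among the members did not share one pattern. Ndc80 had 7.76 RPKM in MycKO 6, close to the 9.41 RPKM of MycKO 5, whereas Nuf2 had 2.34 RPKM in MycKO 6, close to the 2.18 RPKM of control 3. Cenpe, a kinetochore motor, and Cenpf, a large kinetochore and nuclear matrix protein, were like Nuf2, with MycKO 6 near controls 1 and 3, at 1.42 and 0.694 RPKM and MycKO 5 at 4.15 and 3.34 RPKM. Cenpf had the largest ratio between the MycKO libraries, 4.82.

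Among the 7 spindle assembly genes, Kif11, the motor that pushes spindle poles apart (chromosome 19, 37376403 to 37421859, plus strand), measured 2.26, 25.3 and 3.08 RPKM in controls 1 to 3 and 9.36 and 5.21 RPKM in MycKO 5 and 6. Control 2 was far above every other library, MycKO 5 included, and the difference was 0.19 (SE 0.83, limma adjusted p = 0.965). Ckap2l, a spindle protein (chromosome 2, 129268210 to 129297212, minus strand), measured 0.805, 5.74 and 1.20 RPKM in the controls and 8.18 and 4.51 RPKM in MycKO 5 and 6. It had the smallest p of all members (limma adjusted p = 0.427), with a difference of 1.25 (SE 0.58) and a 95% interval from -0.12 to 2.62. Kif2c, which takes microtubule ends apart, was at 2.79 RPKM in control 2, 2.25 and 2.07 RPKM in MycKO 5 and 6, and 0.590 and 0.621 RPKM in controls 1 and 3. Tpx2, the activator of Aurora A, Hmmr, a microtubule-binding protein, and Kif15, a spindle motor, peaked in control 2 at 10.9, 8.04 and 12.4 RPKM. Nusap1, which bundles microtubules, did so at 5.64 times the mean of controls 1 and 3. In Kif15 and Nusap1, MycKO 6 (2.13 and 3.85 RPKM) lay below control 3 (2.86 and 3.95 RPKM).

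The central spindle and cytokinesis genes included the member of highest level in controls 1 and 3. Racgap1, a subunit of the centralspindlin complex (chromosome 15, 99620496 to 99651656, minus strand), measured 32.2, 59.3 and 24.1 RPKM in controls 1 to 3 and 32.2 and 22.6 RPKM in MycKO 5 and 6. MycKO 5 was level with control 1 here, MycKO 6 was the lowest library, and the difference was -0.40 (SE 0.35, limma adjusted p = 0.739). Racgap1 alone made up 23.0% of the members' summed RPKM in control 1, and without it control 2 was 4.83 times the mean of controls 1 and 3. Its partner in the complex, Kif23, was lower: it measured 11.9 RPKM in control 2, 10.3 RPKM in MycKO 5 and 2.77 to 4.33 RPKM in the other libraries. Kif20a, a motor of late mitosis, peaked at 7.16 RPKM in control 2. Kif4, a chromosome-bound motor, and Prc1, which crosslinks the midzone microtubules, peaked there at 6.57 and 17.8 RPKM. Prc1 was lowest in MycKO 6, at 3.69 RPKM, and Kif20a in control 3, at 0.516 RPKM.

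Top2a and Mki67 rested on many reads in every library. Top2a, the topoisomerase that untangles sister chromosomes (chromosome 11, 98992943 to 99024189, minus strand), measured 11.1, 58.9 and 11.5 RPKM in controls 1 to 3 and 36.9 and 18.8 RPKM in MycKO 5 and 6. At least 859 reads lay behind each value, so counting error was small beside the spread between libraries. Mki67, which coats mitotic chromosomes and encodes the Ki-67 antigen (chromosome 7, 135689784 to 135716361, minus strand), measured 6.36, 34.5 and 6.66 RPKM in the controls and 25.0 and 13.7 RPKM in MycKO 5 and 6. In both genes controls 1 and 3 nearly coincided, MycKO 6 was above them and MycKO 5 higher still, below control 2. For Top2a the control libraries averaged 27.2 ± 27.5 RPKM (SD, n = 3) and the MycKO libraries 27.9 ± 12.8 RPKM (SD, n = 2), a difference of 0.39 (SE 0.68, limma adjusted p = 0.899). For Mki67 these means were 15.8 ± 16.2 RPKM (SD, n = 3) and 19.3 ± 7.97 RPKM (SD, n = 2), a difference of 0.63 (SE 0.66, limma adjusted p = 0.804).

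Leaving out control 2 brought 2 members past the threshold. With 2 libraries in each group, Birc5 was 2.34 higher (SE 0.37, limma adjusted p = 0.0339) and Spc25 2.13 higher (SE 0.37, limma adjusted p = 0.0446) in MycKO, where 1.97% of all genes were called. In limma-voom without control 2, Birc5 (4.02, adjusted p = 0.0283), Top2a (1.07, adjusted p = 0.0151) and Mki67 (1.38, adjusted p = 0.00137) passed, where 3.76% of genes did, and Spc25 (3.0, adjusted p = 0.0770) did not. Without control 2, 35 of 36 members were higher in MycKO (55.3% of all genes) and their median was 1.03, with Racgap1 the exception. An unadjusted p under 0.05 was reached there by 22 members in limma (14.7% of genes) and by 21 in limma-voom (16.3% of genes). Control 2 was singled out by the values of these genes, so its omission adds no independent support for a difference. Leaving out MycKO 5 instead brought the median to -0.02, with 16 of 36 members higher in MycKO (56.8% of all genes). The size of the median thus depended on the library left out, from -0.02 to 1.03.

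**Figure D3:**
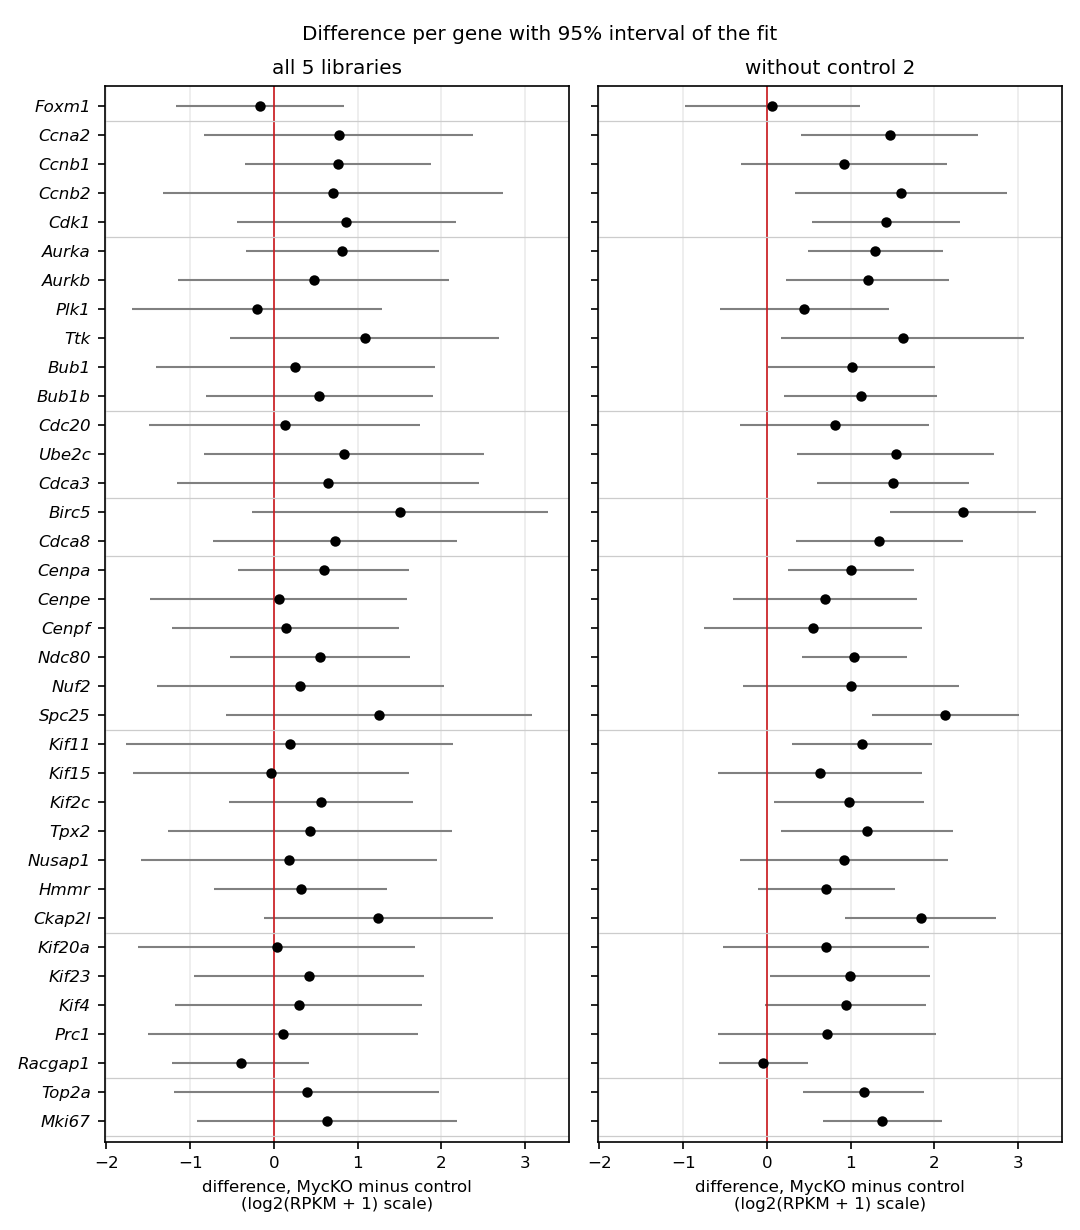
Difference between MycKO and control for each member on the log2(RPKM + 1) scale, with the 95% interval of the limma fit, over all 5 libraries (left) and without control 2 (right). On the left all 36 intervals span 0. On the right all 36 points lie further to the right, which had to follow because control 2 lay above both other controls in every member. Birc5 is there at 2.34 and Spc25 at 2.13.

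The members varied together across the 5 libraries. Over the 630 pairs of members, Pearson's r of log2(RPKM + 1) had a median of 0.886, 268 pairs (42.5%) were over 0.9, and all 630 were positive. These are descriptions over 5 points that share library and depth. The highest pairs were Aurkb with Top2a at 0.997, Nuf2 with Nusap1 at 0.997 and Aurkb with Cdca3 at 0.997. Birc5 and Spc25, of different complexes, were at 0.992, and Ndc80 with Spc25, of 1 complex, at 0.991, whereas Ndc80 with Nuf2 of that complex was at 0.864. The lowest pair was Foxm1 with Aurka at 0.240, followed by Ccnb1 with Racgap1 at 0.275. By the median of its r with the other 35 members, Kif23 was the most typical gene (0.945) and Ccnb1 (0.635), Foxm1 (0.706), Racgap1 (0.714) and Aurka (0.765) the least. With group means subtracted the median over pairs was 0.935, so the shared movement lay within the groups. Without control 2 the median was 0.865 and 625 of 630 pairs were positive, with the lowest at -0.30.

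**Figure D4:**
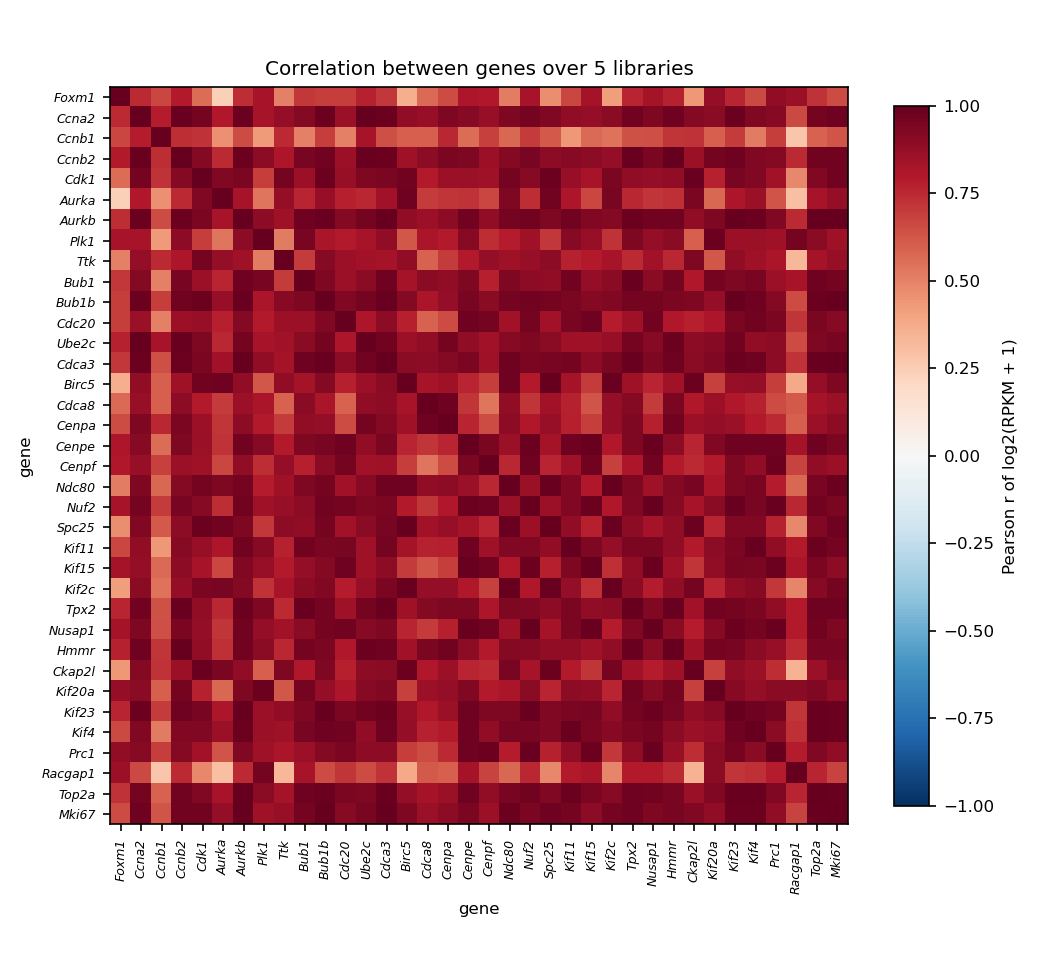
Pearson's r of log2(RPKM + 1) over the 5 libraries for each pair of the 36 members, with colour from -1 to 1. Most cells are dark red, and paler rows mark Foxm1, Ccnb1, Aurka and Racgap1.

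Lists of other genes of the pathway, none of which holds a member, had smaller fold differences between libraries in summed RPKM, which abundant genes can dominate. The median RPKM of the further G2 and mitosis genes was 1.32, 5.48 and 1.49 in controls 1 to 3, beside 2.30, 11.1 and 2.46 for the members. Of those tested, 46 of 75 were at least 2-fold above both other controls in control 2, as were 22 of 47 S phase genes. The rise in control 2 was thus not particular to the 36 members. In those of G2, mitosis and S phase, control 2 and MycKO 5 were again highest in summed level. They were also highest, by less, for the MuvB, MYB and DREAM regulators (415 and 428 RPKM, against 371 to 401 RPKM elsewhere). Of 75 further G2 and mitosis genes tested, 0 were called by limma and 4 had an unadjusted p under 0.05, a smaller share than the 13.2% of all genes, with a median difference of 0.29. Their summed RPKM was 2.14-fold higher in control 2 than in the mean of controls 1 and 3, and the smallest p was that of Cdc25c, the phosphatase that activates CDK1. Cdc25c did not follow the members: it measured 0.376, 0.467 and 0.468 RPKM in the controls and 3.11 and 1.89 RPKM in MycKO 5 and 6, on 11 to 49 reads (limma adjusted p = 0.186). Of 47 S phase replication genes, 0 were called and 3 had an unadjusted p under 0.05, with a median of 0.30 and a control 2 ratio of 1.59. The smallest p there was that of E2f1, a transcription factor of S phase entry, at 0.0643, 1.32 and 1.51 RPKM in the controls and 5.91 and 3.41 RPKM in MycKO 5 and 6 (limma adjusted p = 0.199). Without control 2, Rrm2 and Tk1, enzymes of nucleotide supply, passed.

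The 20 MuvB, MYB and DREAM regulators, a family known to act on cell cycle promoters, had a control 2 ratio of 1.11, a median difference of 0.15 and 0 limma calls (1 with an unadjusted p under 0.05). That gene was Myb, a proto-oncogene of blood progenitors, at 8.99, 8.06 and 14.0 RPKM in the controls and 27.7 and 12.6 RPKM in MycKO 5 and 6 (limma adjusted p = 0.379). The 17 anaphase-promoting complex genes and inhibitors had a ratio of 1.05, a median of 0.00 and 0 limma calls (1 with an unadjusted p under 0.05). That gene was Cdc26, a subunit, at 53.8, 40.3 and 55.1 RPKM in controls 1 to 3 and 31.4 and 32.4 RPKM in MycKO 5 and 6 (-0.61, limma adjusted p = 0.154), and without control 2 it passed as lower in MycKO. The median r between pairs was 0.742 for the further G2 and mitosis genes, 0.752 for S phase, 0.066 for the regulators and -0.081 for the anaphase-promoting complex.

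Marker sums differed less between the controls than the members did, with control 2 at 0.705 to 1.59 times the mean of controls 1 and 3. In control 2 the NK cell markers summed to 13902 RPKM, within 11171 to 16179 RPKM over the 5 libraries. Red cell precursor and platelet markers summed to 149 RPKM in control 2 and to 102 and 93.7 RPKM in controls 1 and 3. Klf1, a defining marker of red cell precursors, was chosen after its values were seen. Mcpt8, a defining marker of basophils, had the highest mean RPKM of the basophil and mast cell markers. In controls 1 to 3 Klf1 was at 0, 0 and 0.365 RPKM and Mcpt8 at 0 RPKM in each, so control 2 did not stand apart in them. Some markers tested were at least 2-fold above both other controls in control 2, where 4.41% of all genes were. They were 2 of 13 of red cell precursors and platelets, 1 of 5 of basophils and 1 of 12 of macrophages and myeloid cells. So were 1 of 8 of T cells and 1 of 10 of B cells. Each of these shares was above that of all genes, though on 1 or 2 genes each. Of NK cell and immature NK cell markers, 0 of 12 and 0 of 12 were. Macrophage and myeloid markers summed to 428 to 640 RPKM in the controls, highest in control 2, and to 2131 and 1504 RPKM in MycKO 5 and 6. Among them Lyz2, the most abundant by mean RPKM, was at 102, 220 and 55.1 RPKM in controls 1 to 3 and at 734 and 210 RPKM in MycKO 5 and 6. In the MycKO libraries Klf1 was at 13.3 and 5.32 RPKM and Mcpt8 at 27.3 and 3.76 RPKM, each higher in MycKO 5, as the members were. T cell markers summed to 17.2 to 33.1 RPKM in the controls and 122 and 186 RPKM in MycKO 5 and 6, and B and plasma cell markers to 127 to 189 RPKM and to 415 and 768 RPKM, both higher in MycKO 6. The part of other dividing cells in the members' levels was not tested. MycKO 5 also had the fewest reads.

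**Figure D5:**
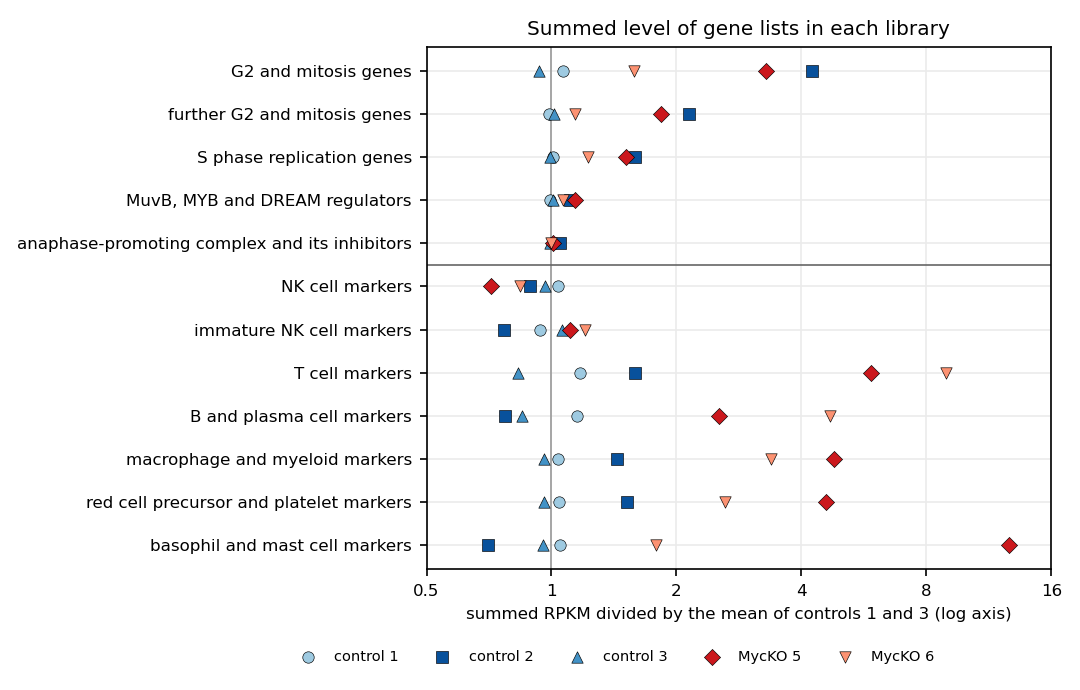
Summed RPKM of the members, of 4 pathway lists and of 7 marker lists in each library, divided by the mean of controls 1 and 3, on a log axis. Control 2 is at 4.25 for the members, at 1.05 to 2.14 for the pathway lists and at 0.705 to 1.59 for the marker lists.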

How the data were processed

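The data are RNA-seq of sorted NK cells, from 3 control and 2 MycKO libraries. Per the labels' protocols, libraries were dUTP-stranded and read as single reads. Per the submitters' processing notes, TopHat, edgeR and genome build mm10 were used, with no role, order or version named. For the counter, the annotation and whether strand was used, the sources used here give nothing, so exons shared with another gene (12 members, 10 of them on the opposite strand) could not be separated. The authors deposited 1 RPKM value per gene and library, a unit inferred from the values. Per the file headers, the authors deposited mean normalized signal, the ratio (fold change), its log2 value, and p-values and adjusted p-values from a test the header does not name.

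Reads were worked out from the deposited RPKM values and group means. All values (100%) came out whole within 0.01 of a read, and intervals and floors cover counting error only. The 11190 genes that reached 1 RPKM in 2 or more libraries were tested with limma 3.58.1 in R 4.3.3 on log2(RPKM + 1), with a variance trend, two-sided, and Benjamini-Hochberg adjustment over all genes at 0.05. Differences are MycKO minus control on that scale, which understates changes of low genes. The fit was tested on simulated reads with the same relative spread for all genes and no shift of a single library. That test therefore does not cover the spread seen among the members. Alternatives were limma-voom on the reads, the authors' test, another pseudocount, filter or scaling, and leaving out each library; limma-voom without control 2 was added after seeing the data. Values are given for the member with the highest mean RPKM and the one with the smallest p in each role group. They are also given for members whose call changed, for the gene with the smallest p of each pathway list and for the most abundant gene of each marker list. Other values were chosen after they were seen. The members and lists were chosen with earlier results of these data known. Promoters are from RefSeq (GRCm38.p6) and coordinates from GENCODE vM21. Figures were drawn with matplotlib 3.10.9.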

Additional observations from a re-analysis of the deposited data

How the results depend on the processing

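The number of genes called by limma was 150 over all genes, and 80 with a pseudocount of 0.1. It was 232 in limma-voom, 442 in the authors' deposited table and 414 in limma-voom without control 2. Leaving out 1 library gave 34 to 217 genes, the lowest without MycKO 5 and the highest without control 2. The number of members called was 0 to 2 with 1 library left out and 3 in limma-voom without control 2. The members' median difference ran from -0.02 to 1.03 with 1 library left out, and the median r between members from 0.865 to 0.945. Of 120 differences of the 15 members given one by one, under other settings or tests, 115 kept direction and side of the threshold. The exceptions were Kif11 and Top2a, which were lower in the authors' deposited table (-0.54 and -0.022), and Birc5, Top2a and Mki67, which passed in limma-voom without control 2. With 1 library left out, 7 of 75 reversed: Foxm1 ran from -0.70 to 0.36, Ccnb1 from -0.020 to 1.56, Kif11 from -0.37 to 1.14 and Top2a from -0.075 to 1.15. The cause of these changes was not tested. Where 1 MycKO library was left, it was assumed to vary like the controls. Median-of-ratios and upper-quartile scaling moved the median of all genes to 0.0043 and 0.0061 and left 32 of 36 members higher. No paired analysis was possible because the groups share no replicate number. Depth limits single members at low level: Birc5 had 12 reads and Ttk 0 in control 1.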

Other observations

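Genes in none of the lists were also high in control 2. Of 493 genes at least 2-fold above both other controls there, 32 were among the 36 members, 46 were further G2 and mitosis genes and 22 S phase genes. Of the 493, 383 were in no list. The genes given next are the 8 most abundant of these by mean RPKM, leaving out small RNAs and genes without a proper name. They were chosen after their values were seen. Plac8, expressed in myeloid and lymphoid cells, was at 26.0, 79.9 and 7.84 RPKM in controls 1 to 3 and at 236 and 67.4 RPKM in MycKO 5 and 6, and Lyz1, a lysozyme, at 14.9, 35.0 and 12.2 RPKM and at 121 and 36.1 RPKM. Alox5ap, needed to make leukotrienes, was at 3.80, 18.4 and 2.97 RPKM in the controls and at 61.1 and 13.5 RPKM in MycKO 5 and 6. Ccl6, a chemokine, was at 10.9, 26.1 and 8.62 RPKM in the controls and at 69.9 and 24.7 RPKM in MycKO 5 and 6. Lst1 was at 5.27, 16.8 and 7.06 RPKM in the controls and at 52.9 and 28.6 RPKM in MycKO 5 and 6. Kpna2, a nuclear import receptor, was at 26.6, 62.1 and 15.4 RPKM in the controls and at 39.7 and 25.7 RPKM in MycKO 5 and 6, and Psmg4, a proteasome assembly factor, was at 18.0, 37.0 and 18.4 RPKM and at 13.9 and 12.0 RPKM. Cx3cr1, a chemokine receptor of myeloid and NK cells, was at 25.9, 53.8 and 21.9 RPKM in the controls and at 26.4 and 23.4 RPKM in MycKO 5 and 6.

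A larger number, 573 genes, were at least 2-fold lower in control 2 than in both other controls, with none of the 36 members, of the further G2 and mitosis genes or of the S phase genes among them. Ly6c2, a surface antigen of mature lymphocytes and monocytes, was at 457, 93.1 and 272 RPKM in controls 1 to 3 and at 102 and 251 RPKM in MycKO 5 and 6, so control 2 and MycKO 5 were both low where the mitosis genes were high. Clec2d, which encodes a ligand of an NK receptor, was at 246, 115 and 314 RPKM in the controls and at 337 and 342 RPKM in MycKO 5 and 6, low in control 2 alone.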
